A study of Mus musculus with 6 samples.

Results

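Transcript levels of 10 receptor tyrosine kinase genes were described in mouse brain tumors with and without FOXR2. They are the EGF receptor family genes Egfr, Erbb2, Erbb3 and Erbb4, the FGF receptor genes Fgfr1, Fgfr2 and Fgfr3, the IGF1 receptor gene Igf1r, the HGF receptor gene Met and the stem cell factor receptor gene Kit. They were chosen by name as receptors studied in glioma, and all 10 were found among the 24537 gene rows of the count table. Every tumor was made by in utero electroporation, in which plasmids are injected into the brain of a mouse embryo and pushed across cell membranes with a pulse of current. All 6 tumors, in mice of the CD-1 IGS strain, carried the mutant receptor gene PdgfraD482V and a dominant-negative p53 (DNp53). The FOXR2 group received FOXR2, a forkhead transcription factor, in addition (3 libraries), and the Control group did not (3 libraries). Both groups thus carry an activated receptor tyrosine kinase of the same superfamily as the genes described here. The sources used here do not give the promoter of the constructs, the age of the animals or whether each library is a separate animal.

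Receptor tyrosine kinases sit in the plasma membrane, bind a growth factor outside the cell and phosphorylate one another on tyrosine once brought together. The phosphotyrosines recruit adaptor proteins that start the RAS-ERK and PI3K-AKT cascades. In the developing brain, Egfr and the FGF receptors act in neural progenitors and glia, Erbb3 and Erbb4 bind neuregulins, and Pdgfra drives oligodendrocyte precursors. Amplified or mutated EGFR, MET and FGFR genes are known from human gliomas.

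Titles set the groups. The authors also deposited a sheet that assigns each of the 6 libraries to the other group, and for this reason a library is always named by its title, and each direction would flip were the sheet correct. Values for the 3 libraries of a title are always given in the order of replicates 1, 2 and 3. The row for mouse Foxr2 did not decide between title and sheet, with 22, 1 and 7 counts (titled FOXR2) against 4, 10 and 7 (titled Control; exact two-sided permutation p = 0.8, and no p under 0.1 can be reached with 3 against 3). Libraries held 13429489 to 17927025 counts. Levels are given in CPM (counts divided by library size, with TMM scaling between libraries), where 3 counts correspond to 0.174 to 0.219 CPM. This floor covers counting error only. Xist and Y-linked genes marked FOXR2 replicates 1 and 3 and Control replicate 1 as male and the other 3 as female, so each title covers at least 2 animals. Markers of oligodendrocyte precursors, the lineage in which Pdgfra acts, summed over 10 genes to 5659 to 6889 CPM in the libraries titled FOXR2 and to 3728 to 5411 in those titled Control. Of these, Cspg4, Olig2 and Sox10 were at 331 CPM or more in every library. Gpr17 ranged from 62.8 to 452 CPM, C1ql1 from 15.9 to 183 and Neu4 from 0.477 to 14.9. FOXR2 replicate 2 stood apart in 12 microglia and macrophage markers, which summed to 1235 CPM there and to 4.74 to 14.0 in the other libraries. It also stood apart in 9 pericyte and fibroblast markers, with a sum of 46.7 CPM against 1.19 to 3.36 elsewhere.

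Kit, Fgfr2 and Igf1r had the largest differences relative to their error, with fitted levels 2.97-, 2.18- and 1.68-fold higher in the libraries titled FOXR2, but no receptor gene passed the test. All 10 passed the filter on low counts, and edgeR's quasi-likelihood test called 0 of 10 at an adjusted p under 0.05, against 2.29% of all 13101 genes tested (0.908% higher and 1.38% lower). The 300 genes behind that share became 205 without FOXR2 replicate 2 and 1 to 10 without any other library, and 0 receptors were called in each case. An unadjusted p under 0.05 was reached by 3 of 10, Igf1r, Kit and Fgfr2, against 24.9% of all genes tested (11.9% higher and 13% lower), a share near that of the receptors. The fitted difference was above 0 in the libraries titled FOXR2 for 9 of 10 receptors and for 50.7% of all genes. Fitted log2 differences had a median of 0.68 over the 10 receptors and 0.011 over all genes tested. DESeq2, another count model, called 2 of 10 higher (Igf1r and Kit), against 13.8% of the genes it tested (6.91% higher). Nothing in the labels says that all libraries of a group come from separate animals, so part of the spread behind these p-values may be technical, and they speak only for these samples. A p that misses the threshold does not show that the levels were equal, and the intervals below give the range of differences these libraries allow.

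**Figure D1:**
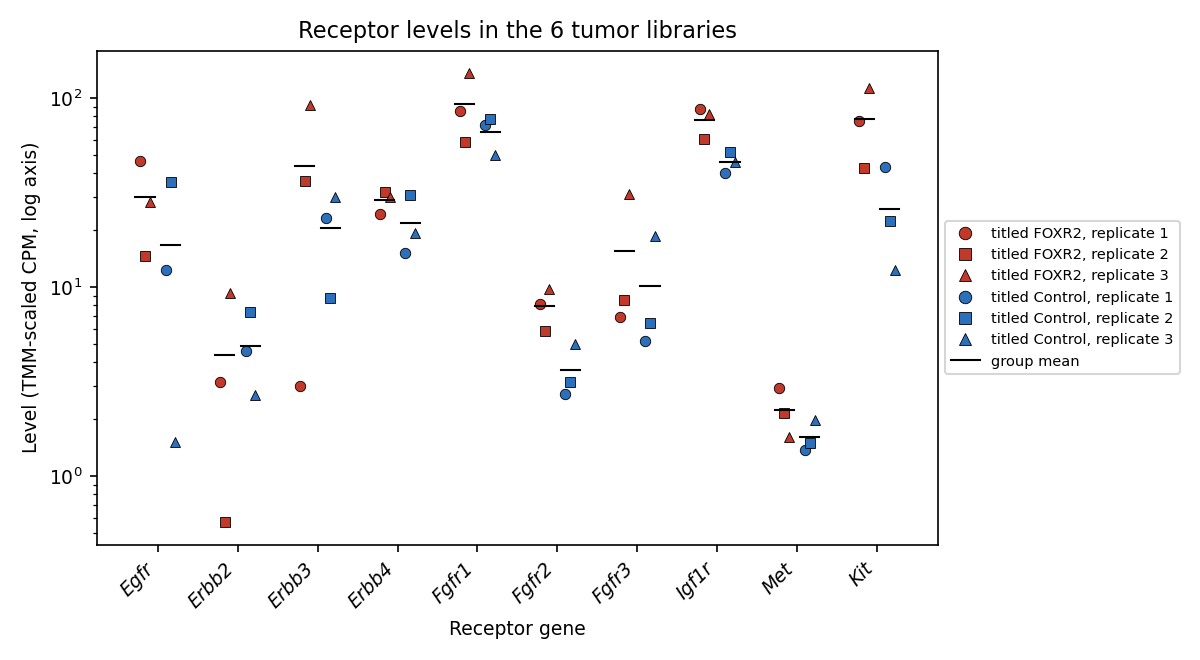
Level of each receptor gene in each library, in TMM-scaled CPM on a log axis; red symbols are the libraries titled FOXR2, blue those titled Control, the symbol gives the replicate and black bars are group means. Igf1r and Fgfr2 are the 2 genes whose groups do not overlap, while Egfr, Erbb2 and Erbb3 spread over more than 10-fold inside a group.

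Igf1r had the most even levels of the 10 and the smallest p. This receptor binds IGF1 and IGF2 and signals mainly through IRS adaptors and PI3K. It stood at 87.6, 60.7 and 82.1 CPM (titled FOXR2) against 39.9, 51.6 and 45.7 CPM (titled Control). The lowest library titled FOXR2 lay above the highest titled Control. The means were 76.8 ± 14.2 and 45.7 ± 5.84 CPM (SD, n = 3 each), and the fitted log2 difference was 0.75 ± 0.21 (SE; 95% interval 0.26 to 1.23; edgeR adjusted p = 0.0920). DESeq2 gave an adjusted p of 0.0274. Groups did not overlap in 2 of 10 receptors, against 30.3% of all genes tested, and both were higher in the libraries titled FOXR2, as were 13.1% of all genes.

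The second was Fgfr2, a receptor of the FGF family with a low level in these tumors. Fgfr2 stood at 8.09, 5.88 and 9.78 CPM (titled FOXR2) against 2.70, 3.16 and 5.0 CPM (titled Control). FOXR2 replicate 2 and Control replicate 3 came within 1 CPM of each other. The log2 fold change was 1.13 ± 0.39 (95% interval 0.22 to 2.03; edgeR adjusted p = 0.137), which is 2.18-fold.

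Kit had the largest fitted difference. Kit is the receptor for stem cell factor, made by the Kitl gene, and is known from melanocytes, mast cells and germ cells. Its levels were 75.7, 42.7 and 113 CPM (titled FOXR2) against 43.2, 22.2 and 12.4 CPM (titled Control). Control replicate 1 and FOXR2 replicate 2 were at nearly the same level, so the groups overlapped there. The means of 77.1 ± 35.1 and 25.9 ± 15.7 CPM (SD, n = 3 each) gave a log2 fold change of 1.57 ± 0.51 (95% interval 0.37 to 2.78; edgeR adjusted p = 0.124), or 2.97-fold. With DESeq2 the adjusted p was 0.0212. Mast cell markers were low, at 0.232 to 2.09 CPM for the sum of 8 genes, of which Hdc gave up to 1.83 CPM (29 counts, FOXR2 replicate 2). The defining genes Cpa3, Tpsb2 and Ms4a2 had no count in any library.

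**Figure D2:**
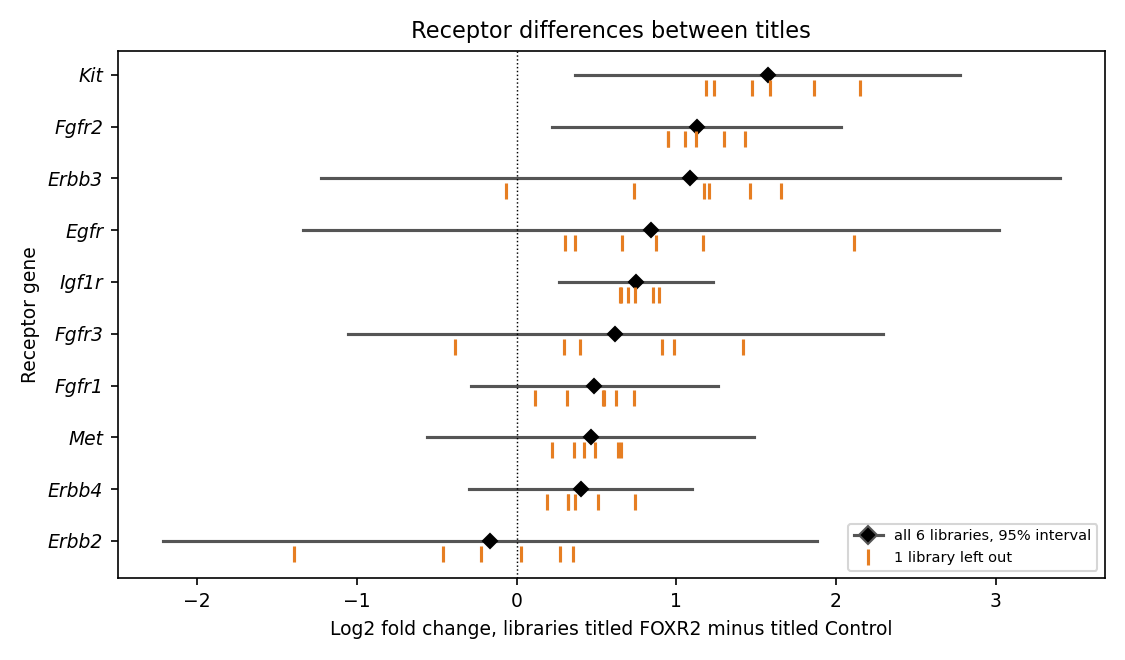
Fitted log2 fold change of each receptor (libraries titled FOXR2 minus titled Control; diamonds, with 95% intervals as lines) and the values with 1 library left out (orange ticks). The intervals of Kit, Fgfr2 and Igf1r lie above 0, and leaving out a library turns the sign of Erbb2, Erbb3 and Fgfr3.

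The other FGF receptors did not separate the titles. Fgfr1, the main FGF receptor of neural progenitors, was detected strongly everywhere, at 85.9, 58.4 and 135 CPM (titled FOXR2) against 72.0, 77.6 and 50.1 CPM (titled Control). The groups overlapped, with a log2 fold change of 0.49 ± 0.33 (95% interval -0.29 to 1.26; edgeR adjusted p = 0.403). Fgfr3, which in the brain is known from astrocytes and their precursors, had 1 high library in each group. It stood at 6.92, 8.54 and 31.2 CPM (titled FOXR2) against 5.16, 6.44 and 18.7 CPM (titled Control). Its log2 fold change of 0.62 ± 0.72 (edgeR adjusted p = 0.631) became -0.39 without FOXR2 replicate 3. A sum of 10 astrocyte markers was also highest in FOXR2 replicate 3, at 1828 CPM against 608 to 842 in the other 5 libraries, but Control replicate 3, the other library with high Fgfr3, was at 751. Aldoc made up 1150 CPM of the high sum. Slc1a2, a glutamate transporter gene of astrocytes, was called higher by edgeR in the libraries titled FOXR2, at 73.9, 76.1 and 96.9 CPM against 19.5, 22.2 and 32.3 CPM (adjusted p = 0.0379). Aldh1l1 went the other way with no overlap, at 18.2, 66.7 and 12.5 CPM (titled FOXR2) against 145, 95.7 and 78.4 CPM (titled Control). Its log2 fold change was -1.71 (edgeR adjusted p = 0.150). Gja1 and Aqp4 were also fitted lower (-1.95 and -0.47), while 6 of 9 tested astrocyte markers were fitted above 0 (50.7% of all genes). Aqp4 was at 0.365 to 4.38 CPM and Gjb6 at 0.238 or less. The part of these astrocyte markers in the Fgfr3 level was not tested.

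Among the EGF receptor family, Erbb4 was the steady member and the other genes varied widely inside each group. Egfr, the receptor of EGF and TGF-alpha, stood at 46.5, 14.5 and 28.3 CPM (titled FOXR2) against 12.3, 36.0 and 1.51 CPM (titled Control). Inside the libraries titled Control the highest was 23.8 times the lowest. The log2 fold change of 0.84 ± 0.93 (95% interval -1.33 to 3.02; edgeR adjusted p = 0.614) was 2.11 without Control replicate 2 and 0.30 without Control replicate 3.

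Erbb3, a neuregulin receptor with an impaired kinase that signals through its ErbB partners, had the widest range. It stood at 3.0, 36.6 and 92.3 CPM (titled FOXR2), a 30.8-fold range, against 23.2, 8.70 and 30.1 CPM (titled Control). The groups overlapped fully, since the libraries titled FOXR2 held both the lowest and the highest level. The fitted difference was 1.09 ± 0.99 (95% interval -1.22 to 3.40; edgeR adjusted p = 0.533) and -0.064 without FOXR2 replicate 3.

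Erbb2, which binds no known ligand and serves as the preferred partner of the other ErbB receptors, was low. Its levels were 3.13, 0.569 and 9.34 CPM (titled FOXR2) against 4.56, 7.39 and 2.67 CPM (titled Control). The lowest of these rested on 9 counts. Erbb2 was the 1 receptor with a fitted value below 0 (log2 fold change -0.17 ± 0.87; edgeR adjusted p = 0.922), and its value was 0.35 without FOXR2 replicate 2 and -1.40 without FOXR2 replicate 3.

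Erbb4, the other neuregulin receptor, kept between 15.1 and 31.7 CPM. It stood at 24.3, 31.7 and 30.1 CPM (titled FOXR2) against 15.1, 30.6 and 19.4 CPM (titled Control). Control replicate 2 lay inside the range of the libraries titled FOXR2 (log2 fold change 0.40 ± 0.30; 95% interval -0.30 to 1.10; edgeR adjusted p = 0.444).

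Met, the receptor for hepatocyte growth factor, was the least abundant receptor by count with 22 to 45 reads a library. It stood at 2.94, 2.15 and 1.61 CPM (titled FOXR2) against 1.38, 1.49 and 1.98 CPM (titled Control). The groups overlapped (log2 fold change 0.47 ± 0.44; 95% interval -0.56 to 1.49; edgeR adjusted p = 0.548).

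How far a receptor varied inside the groups was measured as the pooled within-group SD of log2(CPM + 0.5), whose median over all genes tested was 0.331. Erbb3 (1.84), Egfr (1.61), Erbb2 (1.23) and Fgfr3 (1.04) were above 99.2%, 98.7%, 96.2% and 94.0% of genes tested. Kit, at 0.796, was above 88.4%. Fgfr1, Erbb4, Fgfr2 and Met lay between 0.291 and 0.488, above 41.2% (Met) to 71.6% (Fgfr1) of genes, and Igf1r, at 0.236, was above 27.6%. Tumors with the same title thus differed in Egfr, Erbb2, Erbb3 and Fgfr3 more than in most genes.

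To compare genes with each other, CPM was divided by the length of all annotated exons of the gene in kilobases. On this scale Fgfr1 was the highest of the 10 in 6 of 6 libraries, at 15.3 ± 5.78 CPM per kilobase (SD, n = 6 libraries of both titles). Kit followed at 9.81 ± 7.07, then Igf1r at 5.37 ± 1.72 and Erbb3 at 5.37 ± 5.32. Fgfr3 (2.91 ± 2.33), Egfr (2.12 ± 1.52) and Erbb4 (2.09 ± 0.56) formed a middle range. Fgfr2 (1.13 ± 0.54), Erbb2 (0.920 ± 0.646) and Met (0.282 ± 0.085) were lowest. Of the neighbours in this order, Fgfr1 exceeded Kit, and Erbb4 exceeded Fgfr2, in 6 of 6 libraries, and Erbb2 exceeded Met in 5. The remaining neighbours changed places, with Igf1r above Erbb3 in 2, Egfr above Erbb4 in 3 and Kit above Igf1r, Erbb3 above Fgfr3, Fgfr3 above Egfr and Fgfr2 above Erbb2 in 4 of 6 libraries each, so their order is not settled beyond the spread.

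**Figure D3:**
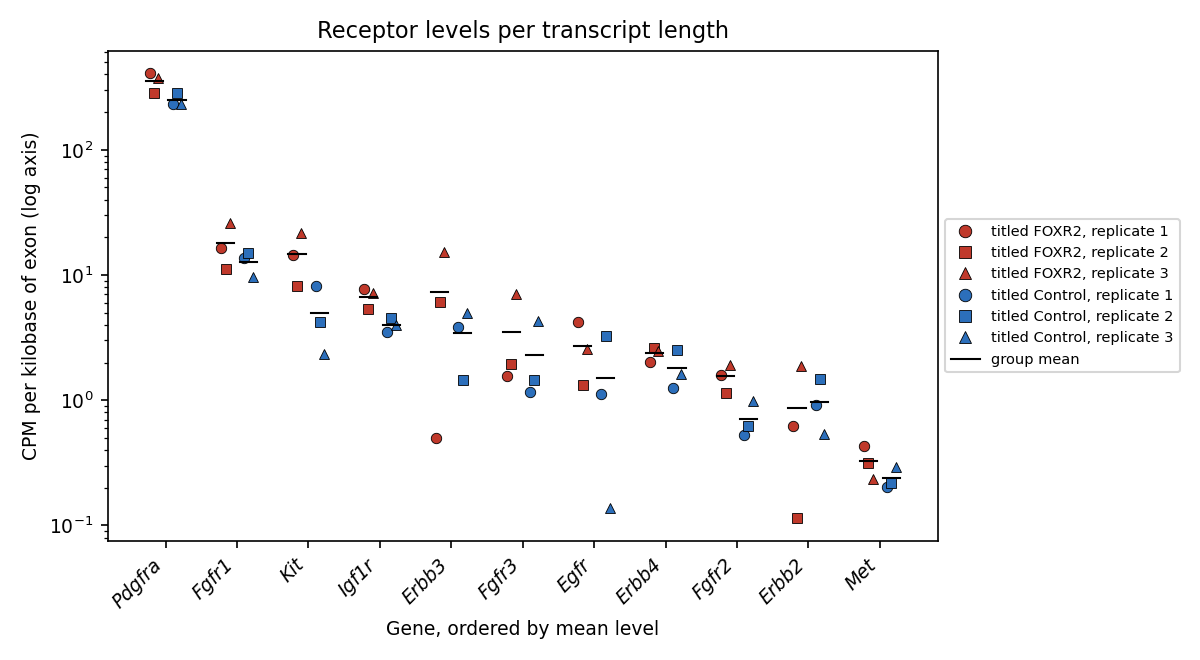
CPM per kilobase of annotated exon on a log axis for Pdgfra and the 10 receptors, ordered by mean level; red symbols are libraries titled FOXR2, blue those titled Control, the symbol gives the replicate and bars are group means. Pdgfra, whose mutant form the construct carries in all tumors, lies at 230.2 to 411, above every other receptor. Its reads were not separated into construct and own gene. Fgfr1 leads the 10 in each library.

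Pdgfra far exceeded the 10 together. Its level per kilobase was 4.32 to 8.29 times their sum in the 6 libraries, with reads of the construct and of the animal's own Pdgfra not separated. The sum of the 10 was 49.5, 38.2 and 86.2 CPM per kilobase (titled FOXR2) against 34.5, 34.7 and 28.8 (titled Control). The titles did not overlap on this sum, and FOXR2 replicate 2 and Control replicate 2 were close. Besides the sum of oligodendrocyte precursor markers given above, the sum of 8 immature neuron markers also kept the titles apart. It was 803 to 961 CPM (titled FOXR2) against 361 to 495 CPM (titled Control). Taken singly, 1 of 10 precursor markers had groups that did not overlap (10%, against 30.3% of all genes tested). Of these 10, 7 were fitted above 0, and C1ql1, Gpr17 and Sox10 were fitted lower (log2 fold changes -1.29, -0.45 and -0.19). Of 8 tested mature neuron markers 5 were fitted above 0 (50.7% of all genes). Syt1 and Syn1 were called higher by edgeR (adjusted p = 0.0436 and 0.0489), 2 of 8 against 0.908% of all genes tested. Nefm, Nefl and Slc17a7 were fitted lower (log2 fold changes -1.73, -1.06 and -0.96), Nefm and Nefl with no overlap. The sums of the 9 listed mature neuron markers overlapped (134 to 322 CPM titled FOXR2 against 147 to 201 CPM titled Control). The part of these cell types in the receptor sum was not tested. FGF receptors made up 37.4% to 51.6% of it, the ErbB family 14.9% to 26.6% and Met 0.274% to 1.01%. The share of Kit was 29.1%, 21.3% and 24.9% (titled FOXR2) against 23.8%, 12.2% and 8.19% (titled Control). The second receptor after Fgfr1 was Kit in all libraries but Control replicates 2 and 3, where it was Igf1r and Erbb3.

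Erbb3 and Egfr were set beside the markers of mature oligodendrocytes, the myelinating cells that also express Erbb3. The sum of 12 such markers was 265, 5536 and 1517 CPM (titled FOXR2) against 1940, 371 and 4432 CPM (titled Control). FOXR2 replicate 1 and Control replicate 2, lowest in these markers, were also lowest in Erbb3 and highest in Egfr. Control replicate 3, at 4432 CPM of the markers, had the lowest Egfr. The highest Erbb3, in FOXR2 replicate 3, came with the third lowest marker sum, so the levels did not follow one another throughout. Of the 12, the late myelin genes Mog, Mobp and Aspa were at 0.326 CPM or less in 5 of 6 libraries. FOXR2 replicate 2, the library with microglial markers, held 25.2, 7.34 and 0.316 CPM of them. Other myelin genes of the 12 were not low. Mag reached 53.5 CPM in Control replicate 1, 341 in FOXR2 replicate 2 and 363 in Control replicate 3. Cldn11 was at 30.3 to 495 CPM. In bulk RNA, fewer cells of a type and less RNA per cell cannot be told apart. The part of oligodendrocyte content in the receptor levels was not tested.

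**Figure D4:**
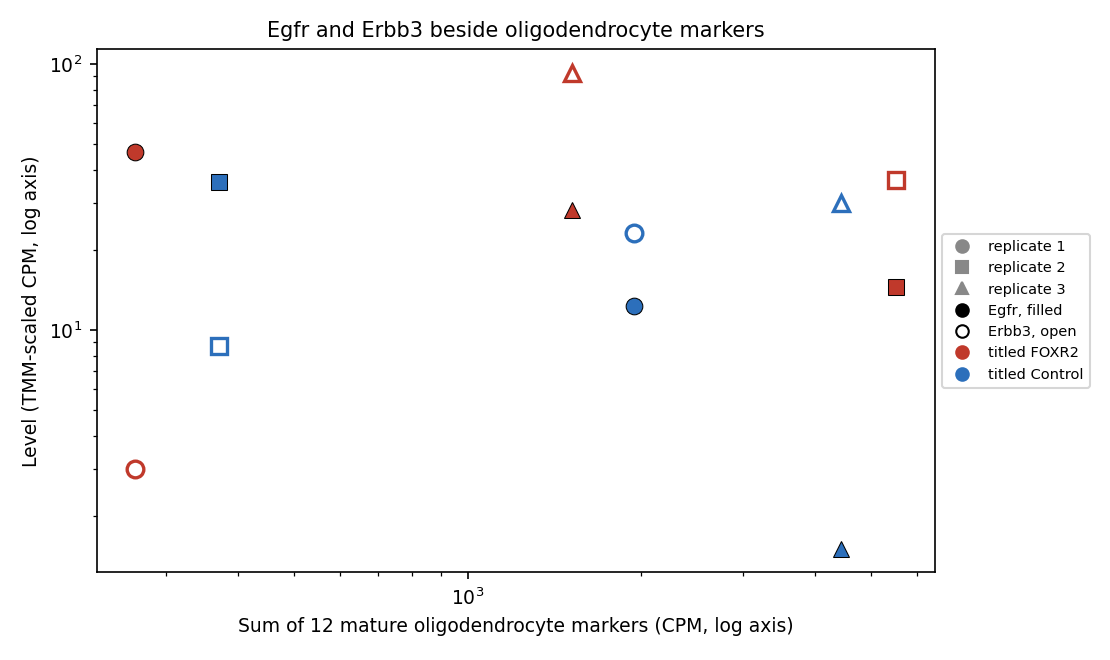
Egfr (filled) and Erbb3 (open) levels in TMM-scaled CPM against the summed level of 12 mature oligodendrocyte markers, both on log axes, 1 symbol per library (red titled FOXR2, blue titled Control; shape gives the replicate). The libraries with the lowest marker sums, FOXR2 replicate 1 and Control replicate 2, hold the highest Egfr and the lowest Erbb3.

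Of 33 growth factor genes for these receptors, 10 passed the filter on low counts and 0 were called by edgeR, where 1 had an unadjusted p under 0.05 (2.29% and 24.9% of all genes tested). For the EGF family, 6 of 11 ligands were tested, with a median of 0.05 on the log2 scale. Tgfa, which encodes the EGFR ligand TGF-alpha, stood at 34.8, 74.7 and 172 CPM (titled FOXR2) against 43.7, 18.7 and 94.2 CPM (titled Control). Like Fgfr3, it was highest in replicate 3 of each title, and its log2 fold change was 0.84 ± 0.70 (edgeR adjusted p = 0.496). Hbegf, another EGFR ligand, stood at 17.2 to 23.1 CPM in the libraries titled FOXR2 and 24.4 to 41.1 in those titled Control (edgeR adjusted p = 0.229).

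The neuregulin gene Nrg1, whose product binds Erbb3 and Erbb4, stood at 0.718, 3.10 and 7.59 CPM (titled FOXR2) against 0.540, 0.477 and 0.871 CPM (titled Control). Within each title the order of the libraries in Nrg1 was that in Erbb3, though the Control levels of Nrg1 rested on 9, 8 and 15 counts. FOXR2 replicate 1 lay inside the Control range, and the fitted log2 difference was 2.58 ± 0.84 (edgeR adjusted p = 0.123). DESeq2 called Nrg1 higher (adjusted p = 0.0292).

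Fgf1, which binds all FGF receptors, was the 1 FGF ligand of 18 that passed the filter. It stood at 14.3, 4.05 and 37.8 CPM (titled FOXR2) against 9.35, 13.8 and 1.51 CPM (titled Control), with a fitted log2 difference of 1.19 ± 0.93 (edgeR adjusted p = 0.470), and its value was 0.16 without FOXR2 replicate 3. Kitl, which encodes the Kit ligand, was present in all tumors at 14.7, 19.3 and 29.3 CPM (titled FOXR2) against 35.4, 22.3 and 12.9 CPM (titled Control), with a fitted log2 difference of -0.16 ± 0.42 (edgeR adjusted p = 0.843). The order of the libraries in Kitl was that in Kit for those titled Control and differed for those titled FOXR2.

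Igf1 was at 22.4 CPM in FOXR2 replicate 2 and 19.2 in Control replicate 3 and at or under 3.18 in the others (edgeR adjusted p = 0.982), so its level did not go with that of Igf1r. Igf2 was highest in Control replicate 3 at 22.4 CPM and at 1.20 to 4.56 elsewhere (edgeR adjusted p = 0.392). Hgf, the Met ligand, failed the filter, with at most 1.58 CPM, in FOXR2 replicate 2.

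**Figure D5:**
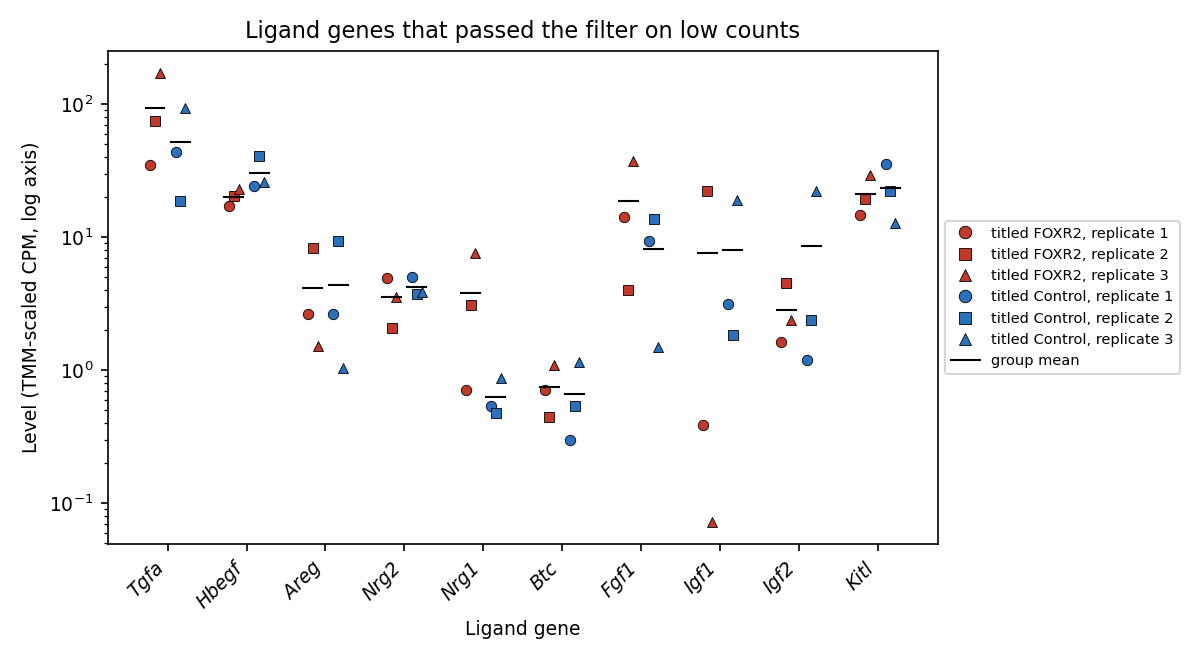
Levels of the 10 ligand genes that passed the filter on low counts, in TMM-scaled CPM on a log axis; red symbols are libraries titled FOXR2, blue those titled Control, the symbol gives the replicate and bars are group means. Tgfa is highest in replicate 3 of each title, and Nrg1 is above 3 CPM only in FOXR2 replicates 2 and 3.

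Proteins that hold ligands near the receptors gave 0 calls by edgeR, with 6 of 17 tested genes at an unadjusted p under 0.05 (35.3%, against 24.9% of all genes; 2.29% of all genes were called). Of 6 tested IGF binding proteins, 5 were fitted above 0 (median log2 fold change 0.69). Igfbp5 stood at 73.0, 45.4 and 135 CPM (titled FOXR2) against 25.6, 34.3 and 26.4 CPM (titled Control), with no overlap (log2 fold change 1.55 ± 0.39; edgeR adjusted p = 0.0771). It was called without FOXR2 replicate 2 (log2 fold change 1.85, adjusted p = 0.0471). Igfbp2 and Igfbp4 had log2 fold changes of -1.46 and 1.10 (edgeR adjusted p = 0.295 and 0.526). Of 11 tested FGF co-receptors and heparan sulfate carriers, 9 were fitted above 0 (median 0.33). The syndecans Sdc3 and Sdc2, membrane proteoglycans, had log2 fold changes of 1.48 ± 0.31 and 1.10 ± 0.25 (edgeR adjusted p = 0.0575 and 0.0618) with no overlap, and the glypican Gpc3 of -1.81 ± 0.59 (adjusted p = 0.121).

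Of 145 genes listed around these receptors, 105 were tested, 0 were called by edgeR, and 23.8% had an unadjusted p under 0.05, against the 24.9% of all genes given above. DESeq2, which has its own filter and tested 111 of the 145, called 14 higher and 3 lower (15.3%, against 13.8% of all genes it tested). The 20 tested receptor adaptors had a median difference of 0.33 on the log2 scale, and the groups did not overlap in 10 of them (50%, against 30.3% of all genes tested). Nck2 (1.63 ± 0.40), the insulin and IGF1 receptor substrate Irs1 (0.87 ± 0.23) and the docking protein gene Gab1 (1.01 ± 0.28) had the smallest adjusted p in edgeR (0.0741, 0.0838 and 0.0950). Irs1 stood at 23.9, 20.9 and 22.4 CPM (titled FOXR2) against 10.2, 14.5 and 12.1 CPM (titled Control). The groups did not overlap. Irs2, the other IRS gene listed, overlapped, at 44.8, 34.8 and 66.1 CPM (titled FOXR2) against 52.0, 57.1 and 53.2 CPM (titled Control; edgeR adjusted p = 0.740).

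In the PI3K-AKT arm 7 of 11 tested genes were fitted above 0 (median 0.30). The regulatory subunit genes Pik3r1 and Pik3r3 had log2 fold changes of 1.15 ± 0.25 and 1.09 ± 0.50 (edgeR adjusted p = 0.0601 and 0.231). In the RAS-RAF-MEK-ERK arm 9 of 12 were fitted above 0 (median 0.12). The RAS gene Hras differed by 0.38 on that scale (edgeR adjusted p = 0.296).

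Among 16 genes for receptor inhibitors and turnover, with a median of 0.29 on the log2 scale, the smallest adjusted p in edgeR belonged to the tyrosine phosphatase gene Ptpn2, Lrig1 and Socs3. Lrig1, a membrane protein that lowers the amount of ErbB receptors, stood at 136, 50.2 and 195 CPM (titled FOXR2) against 50.1, 41.9 and 22.0 CPM (titled Control), with a fitted log2 difference of 1.74 ± 0.52 (edgeR adjusted p = 0.105). FOXR2 replicate 2 and Control replicate 1 were almost level. Its order of libraries was nearly that of Kit. Ptpn2 and Socs3 had log2 fold changes of -0.75 and 1.01 (edgeR adjusted p = 0.0956 and 0.140).

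Other receptor tyrosine kinases outside the 10 gave no call either. Of 32 further receptor kinases, without the PDGF and ephrin receptors, 19 were tested, and edgeR called 0, with 4 at an unadjusted p under 0.05 (2.29% and 24.9% of all genes tested). The fitted value was above 0 for 17 of them, against 50.7% of all genes, and the median was 0.61 on the log2 scale. Ret, the GDNF family receptor, stood at 6.85, 2.59 and 3.14 CPM (titled FOXR2) against 1.08, 1.37 and 0.755 CPM (titled Control), with a fitted log2 difference of 1.97 ± 0.53 (edgeR adjusted p = 0.0875). Alk and Mertk had log2 fold changes of 1.31 and 1.85 (edgeR adjusted p = 0.164 and 0.188). Mertk, which macrophages express, reached 22.7 CPM in FOXR2 replicate 2, the library with microglial markers, and 2.21 to 4.38 CPM elsewhere. Fgfr4, the remaining FGF receptor kinase, failed the filter, at 3 counts in each library titled FOXR2 and 12, 5 and 37 counts in those titled Control.

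Most of the transcript sequence of each receptor was distinct from that of other genes, with the largest shared part in Fgfr3. Of the 51-base windows of the GENCODE M21 transcripts of each receptor, 0 were shared with another of the 10. Windows shared with any other gene were 11.5% for Fgfr3, 2.46% for Fgfr2, 1.43% for Fgfr1, 0.20% for Egfr and 0 for Erbb2, Erbb3, Erbb4, Met, Igf1r and Kit. Of the 877 shared windows of Fgfr3, 850 were shared with G630022F23Rik, whose exons overlap 437 bases of it on the other strand, and 27 with Nvl (54.4 ± 9.31 and 77.7 ± 11.8 CPM; SD, n = 3 each). Those of Fgfr2 lay in Ctbp2, which overlaps 314 bases on the same strand. Ctbp2 stood at 68.9 ± 11.3 and 52.5 ± 10.5 CPM (SD, n = 3 each; edgeR adjusted p = 0.315). Its groups did not overlap, and it was higher in the libraries titled FOXR2, as Fgfr2 was. Since the sources used here do not say whether counting used strand, the Fgfr3 level carries that uncertainty. For Fgfr2 the overlap is on the same strand, so use of strand would not separate it from Ctbp2. The part of Ctbp2 reads in the Fgfr2 level was not tested.

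The genes whose levels followed the 3 receptors of smallest p most closely were found by Pearson correlation of log2(CPM + 0.5) over the 6 libraries, among 12109 other genes. For Igf1r they were Cacna1g, a calcium channel gene, and the adaptor gene Shc3 (0.998 and 0.996). For Kit they were Fhl4 and Dab2ip, a RAS GTPase-activating protein gene (0.997 and 0.990). For Fgfr2 they were the netrin receptor gene Unc5c and the RAS-like gene Mras (0.994 and 0.993). With 6 libraries, 82 to 101 of the 12109 genes exceeded 0.95 for each receptor, so a value above 0.95 does not single out the 2 genes named.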

How the data were processed

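RNA of 6 mouse brain tumor samples was selected for poly(A) tails and sequenced as single reads of 51 bases with a strand-keeping kit, per the labels' protocols. The authors deposited raw read counts per gene symbol (24537 rows, of which 23 are spreadsheet dates and were not named). TopHat, DESeq2 and the human build hg19 are named without versions in the submitters' processing notes although the symbols are mouse, and coordinates were therefore left out. The sources used here do not name the counting tool or the annotation. The other deposited file gives a group per library and was only compared with the titles.

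The model was fitted to the counts in edgeR 4.0.16 (R 4.3.3) with filterByExpr (count minimum 10, 13101 genes left), TMM factors (0.961 to 1.03) and the quasi-likelihood F test without covariate, adjusted by Benjamini-Hochberg over all genes (threshold 0.05). A positive log2 fold change means a higher level in the libraries titled FOXR2 (prior count 0.125). Its SE is the fold change over the root of F. The test was checked on simulated counts with 200 changed genes. Exon lengths and windows came from GENCODE M21, where 10 of 10 receptors matched by symbol. Receptors and lists were chosen with earlier results of these data known. Named were the 10 receptors, the 3 genes of smallest adjusted p in each of 10 lists (all where 5 or fewer were tested) and, for 3 receptors, the 2 most similar genes (mean of 1 CPM or more). Tgfa, Hbegf and Nrg1 came from that rule. Fgfr4, Hgf, Ctbp2, Nvl, Irs2, Slc1a2, Aldoc, Aldh1l1, Gja1 and Hdc were named after their values were seen. So were Syt1, Syn1, Nefm, Nefl, Slc17a7, C1ql1, Gpr17, Neu4, Mag and Cldn11. Some genes that the rule names are not reported here. The permutation test planned for receptors that fail the filter was not needed. Libraries of a title differed by more than sampling noise (the lowest median chi-square was 8.37). Alternatives were other scaling (RLE, total counts), DESeq2 1.42.0, limma-voom (limma 3.58.1), no filter, a block for the replicate number, omission of each library and, added after seeing the data, animal sex (read from Xist and Y-linked genes) as a covariate and other transcript lengths.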

Additional observations from a re-analysis of the deposited data

How the results depend on the processing

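The count of 0 receptors called held under RLE factors, total-count scaling, no filter, limma-voom, the replicate block, animal sex as a covariate and with any 1 library left out (0 to 0), and DESeq2 called 2. Of 130 receptor fold changes under alternatives, 123 kept their direction and side of the threshold and 2 passed it with DESeq2 (Igf1r 0.76, Kit 1.58). The 5 that reversed were Erbb2 without FOXR2 replicate 1 (0.027), FOXR2 replicate 2 (0.35) and Control replicate 2 (0.27), and Erbb3 (-0.064) and Fgfr3 (-0.39) without FOXR2 replicate 3; the cause was not tested. With 1 library left out these genes ranged from -1.40 to 0.35, -0.064 to 1.65 and -0.39 to 1.42. Of the genes listed around the receptors DESeq2 called 17, and leaving out 1 library gave 0 to 1. Over all genes, 119 were called higher and 181 lower. DESeq2 called 947 and 947, animal sex as a covariate left 7 and 0, total-count scaling 119 lower, and leaving out 1 library 1 to 123 higher and 0 to 82 lower. The replicate block called 0 and 0 with edgeR (2652 at an unadjusted p under 0.05, 3 of 10 receptors among them). Same-numbered libraries did not deviate together (correlations of -0.016, -0.241 and -0.010), so the numbers were not taken as pairs. With the median length of coding transcripts, levels per kilobase of Fgfr2 and Met were 1.53 and 0.412. With depths of 13429489 counts or more, Met (22 to 45 counts) and Erbb2 in FOXR2 replicate 2 (9 counts) are limited most by counting.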

Other observations

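Axl, a receptor kinase of the TAM family chosen here after its values were seen, was high in 3 libraries and low in 3, across the titles. It stood at 33.5, 147 and 137 CPM (titled FOXR2) against 22.4, 25.0 and 137 CPM (titled Control) (edgeR adjusted p = 0.588). FOXR2 replicate 1 and Control replicate 2, which had the highest Egfr and the lowest Erbb3, were among the 3 low libraries.

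Fgf21, a hormone-like FGF that acts with the co-receptor Klb, had 259 counts in Control replicate 2 (15.4 CPM) and 0 to 10 counts in each other library, and failed the filter for that reason. The neuregulin gene Nrg3, which also failed it, had 24, 35 and 5 counts (titled FOXR2) against 1, 2 and 1 (titled Control). Neither has an edgeR test in the fit used here, while DESeq2, with its own filter, called Nrg3 higher (adjusted p = 0.0117). Both were chosen after their values were seen.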
